A study of Coilia nasus with 12 samples.

Results

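Messenger RNA of the stomach was profiled in 12 individual Coilia nasus, an estuarine anchovy that migrates to spawn, and the transcripts of 3 appetite and gut-motility genes are described here. These are Nucb2, the precursor of the satiety peptide nesfatin-1, gal, the precursor of the neuropeptide galanin, and TACR1, a receptor for tachykinin peptides. Of 63567 unigenes assembled without a genome, 5 carried one of these names without regard to case: 3 were named Nucb2 or NUCB2, 1 was named gal and 1 was named TACR1. The groups were 6 fish labelled food intake and 6 fish labelled no food intake, all sampled as stomach with gastric mucosa given as the source. Strain, age, sex, the time since feeding and the size of the meal were not among the labels used here.

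Nucleobindin-2 is a calcium-binding EF-hand protein of the secretory pathway, and its cleavage by prohormone convertases releases nesfatin-1, which lowers food intake in mammals and in goldfish. In the rat stomach it is made in endocrine cells of the gastric mucosa. Galanin is made by neurons of the gut wall and acts on G-protein-coupled receptors, through which it modulates muscle contraction and gastric secretion in mammals. Tachykinins such as substance P and neurokinin A (substance K) are released by enteric neurons, and their receptors couple to the Gq protein and raise intracellular calcium, which contracts gut muscle.

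The values are TPM, a share of each library's transcripts corrected for unigene length, so levels can be set side by side between unigenes. Column totals were 984119 to 992092. Read depth cannot be had from TPM, and the only measure of precision is how far the fish of one group lie apart. A unigene was tested if it reached 1 TPM in at least 6 libraries, which 40142 did, among them all 5 members. The test was limma on log2(TPM + 1), and each log2 change below is the food intake mean minus the no food intake mean of those logs, which understates changes of low unigenes. In bulk tissue, fewer cells of a type and less RNA per cell cannot be told apart. The labels call each sample an individual fish and give no tank or sampling day.

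Some libraries stood apart before any gene was compared. In food intake 6, 7 unigenes that tracked an rRNA-related unigene took 64.2% of all TPM. Their share was 4.34% to 16.4% in food intake 1 to 5, and 6.12% to 26.9% in no food intake 1 to 6. The 48 smooth muscle and interstitial-cell unigenes summed to 2929 to 6943 TPM in the food intake libraries, against 27097 TPM in no food intake 3 and at most 6865 TPM in the other no food intake libraries. The 34 gastric gland unigenes summed to 110009 to 384523 TPM with food intake, against 59324 TPM in no food intake 3, the lowest of all. All 6 gastric gland markers sought for the stomach label, among them the proton pump genes and the pepsinogens, were found. A set of 7 libraries (food intake 1, 5 and 6, no food intake 1, 2, 4 and 6) held mitochondrial unigenes with chicken best matches at 31.05 to 97.2 TPM, which were listed at 0 in the other 5 libraries (food intake 2, 3 and 4, no food intake 3 and 5). The labels do not mention these sets, and values within each are given below.

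The nesfatin precursor had a higher mean with food intake in all 3 of its unigenes, at 1.92 to 2.32 times the no food intake mean, and 0 of the 3 passed the test at adjusted p under 0.05, as did 0% of all unigenes tested. The most abundant, Nucb2 (TRINITY_DN27278_c1_g4, 724 bases, best match NUCB2A of the fish Schizothorax prenanti), had 26.3, 15.7, 19.2, 7.67, 18.1 and 5.06 TPM in food intake 1 to 6, against 4.17, 3.13, 6.81, 8.74, 10.02 and 6.86 TPM in no food intake 1 to 6. Food intake 1, 2, 3 and 5 lay above every no food intake library, whereas food intake 4 and 6 lay within their range, so the groups overlapped. The means were 15.3 ± 7.83 TPM with food intake and 6.62 ± 2.62 TPM without (SD, n = 6 each). The log2 change was 1.01 (SE 0.39, 95% interval 0.19 to 1.82; limma adjusted p = 0.774 over 40142 unigenes), and 5 of 6 food intake fish lay above the median of the fish without food. It was 1.21 in the 7 libraries with chicken-matched unigenes and 0.62 in the other 5 (limma adjusted p = 0.674 and 0.837).

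The second unigene, NUCB2 TRINITY_DN27463_c2_g8 (798 bases, best match nucleobindin-2-like of a tongue sole), had 10.2, 6.46, 2.45, 1.56, 7.07 and 2.02 TPM with food intake, against 1.23, 1.20, 2.36, 3.41, 4.50 and 2.44 TPM without. Food intake 1, 2 and 5 stood above all no food intake libraries and the other 3 food intake libraries fell among them. Its means were 4.97 ± 3.50 and 2.52 ± 1.28 TPM, with a log2 change of 0.62 (SE 0.39, 95% interval -0.20 to 1.44; limma adjusted p = 0.826). Within the 2 library sets it was 1.15 and -0.09 (limma adjusted p = 0.664 and 0.987), and without food intake 1 it was 0.39. The third, NUCB2 TRINITY_DN27278_c1_g11 (1535 bases, best match nucleobindin-2 of the Atlantic herring), had 6.50, 2.65, 2.40, 2.01, 3.69 and 0.90 TPM with food intake, against 2.11, 1.10, 0.70, 1.70, 1.94 and 1.89 TPM without. Food intake 1, 2, 3 and 5 were again above all no food intake libraries, food intake 4 lay just below the highest of them and food intake 6 lay near the lowest. Its means were 3.03 ± 1.93 and 1.57 ± 0.55 TPM, with a log2 change of 0.55 (SE 0.32, 95% interval -0.12 to 1.22; limma adjusted p = 0.808). It was 0.60 and 0.58 within the sets (limma adjusted p = 0.829 and 0.825) and 0.34 without food intake 1.

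The 3 unigenes followed each other across the fish, more closely in some pairs than in others. The rRNA-like share of a library enters all of its TPM values, and the 7 relations given here and below were not computed after rescaling. Their p values therefore do not show that the likeness is particular to these genes. The permutations also ran over all 12 libraries without regard to group. A group difference shared by both unigenes of a pair thus enters r and its p, and no relation was computed within a group. On log2(TPM + 1) over the 12 libraries, TRINITY_DN27278_c1_g4 and TRINITY_DN27463_c2_g8 had Pearson r = 0.85 and Spearman rho = 0.89 (permutation p = 0.00043 and 0.00023, adjusted over 7 relations 0.00301 and 0.00161). Without food intake 1 and no food intake 2, the farthest from the median, r was 0.74. It was 0.99 in the 7 libraries with chicken-matched unigenes and 0.46 in the other 5, where food intake 3 had 79.8% of the summed Nucb2 signal in TRINITY_DN27278_c1_g4. Elsewhere that unigene held 55.5% to 69.0% of the sum, so it had the largest share of the summed Nucb2 TPM in each of the 12 fish. TRINITY_DN27278_c1_g11 had r = 0.80 and rho = 0.76 with TRINITY_DN27278_c1_g4 (permutation p = 0.00123 and 0.00646, adjusted 0.00322 and 0.0151), with r = 0.78 without food intake 1 and no food intake 3 and 0.90 and 0.76 within the sets. With TRINITY_DN27463_c2_g8 it had r = 0.76 and rho = 0.63 (permutation p = 0.00381 and 0.0326, adjusted 0.00667 and 0.057), with r = 0.66 without those 2 fish and 0.87 and 0.39 within the sets. TRINITY_DN27278_c1_g11 and TRINITY_DN27278_c1_g4 came from the same Trinity component, and whether reads shared between them enter their r was not tested.

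Summed over the 3 unigenes, Nucb2 had 43.0, 24.8, 24.0, 11.2, 28.9 and 7.98 TPM in food intake 1 to 6, against 7.51, 5.43, 9.87, 13.9, 16.5 and 11.2 TPM in no food intake 1 to 6. The same 4 food intake fish (1, 2, 3 and 5) exceeded every no food intake fish, and food intake 6, the library rich in rRNA-like signal, was the lowest of its group. The means were 23.3 ± 12.7 and 10.7 ± 4.05 TPM, a log2 change of 0.94 (SE 0.38, 95% interval 0.14 to 1.74). In limma over 9496 gene names, the p was 0.0242 and the adjusted p 0.747, with 6.42% of all names under an unadjusted p of 0.05 and 0% called. After removal of the rRNA-like unigenes and rescaling to equal totals, TRINITY_DN27278_c1_g4 in food intake 6 stood at 14.1 TPM. The highest no food intake value of that unigene was then 13.6 TPM. In it, 5 of 6 food intake fish thus exceeded every no food intake fish. For TRINITY_DN27278_c1_g11 and TRINITY_DN27463_c2_g8 that count remained at 4 and 3 of 6. The rescaled log2 change of the sum was 1.09 (limma adjusted p = 0.332).

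**Figure D1:**
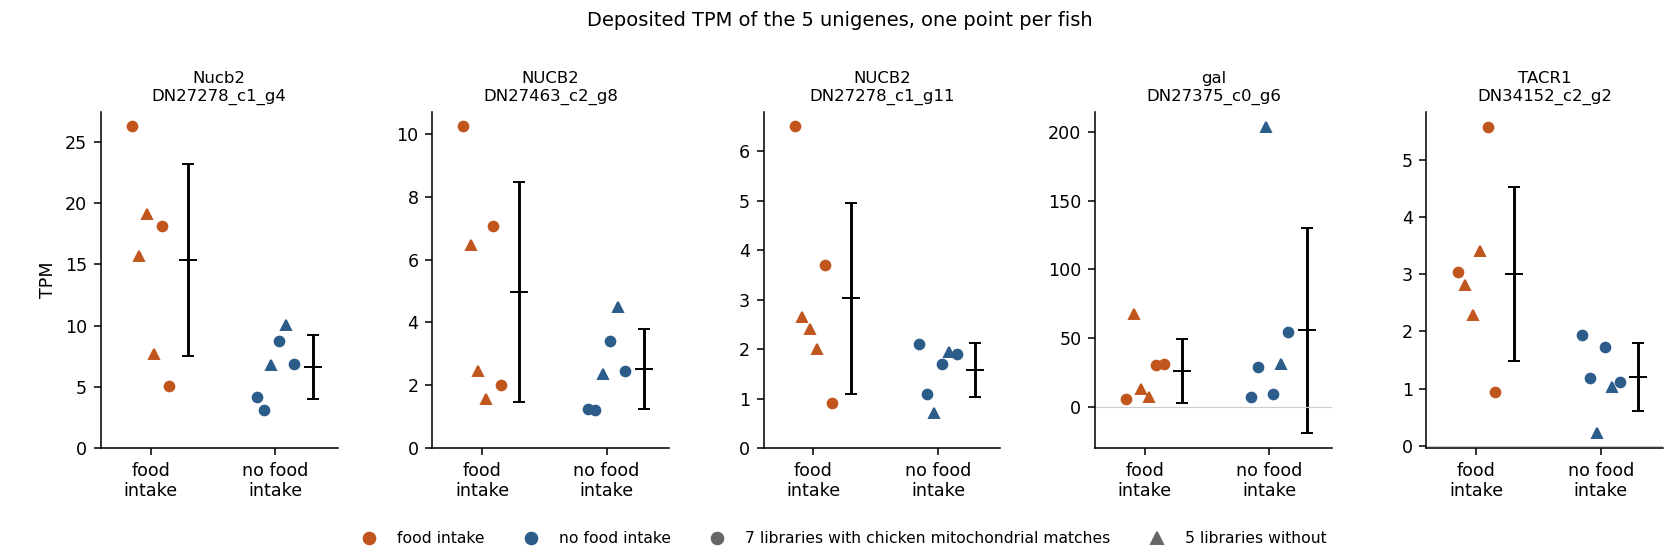
TPM of each of the 5 unigenes in food intake (left of each panel) and no food intake fish (right), 1 point per fish, with mean ± SD (n = 6 each) as bars and each panel on its own linear scale; round points are the 7 libraries with chicken-matched mitochondrial unigenes and triangles the other 5. In Nucb2 TRINITY_DN27278_c1_g4, NUCB2 TRINITY_DN27278_c1_g11 and TACR1, most food intake fish lie above all no food intake fish, with overlap between groups. In NUCB2 TRINITY_DN27463_c2_g8, 3 of 6 food intake fish do so. The gal panel is dominated by no food intake 3 at 203 TPM.

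Other nucleobindins and EF-hand proteins of the secretory pathway had the same direction. All 7 tested unigenes of that list were higher with food intake, with a median log2 change of 0.55, where 46.0% of all tested unigenes were above 0 and their median was -0.04, and 0 of the 7 passed the test. The NUCB1 unigene TRINITY_DN27278_c1_g5, whose best match is nevertheless nucleobindin-2-like, averaged 6.14 ± 3.77 TPM in food intake fish and 3.54 ± 1.86 TPM in no food intake fish (log2 0.55, limma adjusted p = 0.857). A short NUCB1 unigene of 248 bases, TRINITY_DN19687_c1_g1, had 2.26 ± 1.42 and 1.36 ± 0.96 TPM (log2 0.43). Its best match was nucleobindin-1-like of a mammal, Carlito syrichta. An Sdf4 unigene of 201 bases in the list, with a rat best match, had a log2 change of 0.17. Whether these short unigenes are fish transcripts was not tested. The names calub, NUCB1 and sdf4 each stood for more than 1 of the 7 unigenes. The lowest p of the list belonged to calub, a calumenin that binds calcium in the endoplasmic reticulum (TRINITY_DN27220_c0_g4), with 4.12 ± 4.20 and 0.722 ± 0.566 TPM (log2 1.30, SE 0.41, limma adjusted p = 0.768). Its value in food intake 1 was 12.2 TPM, far above the rest. The sdf4 unigene, a Golgi calcium-binding protein, had 14.7 ± 6.69 and 9.77 ± 2.69 TPM (log2 0.47). Food intake 6 was the lowest of the 12 libraries in 3 of these 7 unigenes, and in 41.4% of all tested unigenes. All 7 were also higher after rescaling (median 0.66) and without food intake 6 and no food intake 3 (median 0.78). The medians over all tested unigenes were then 0.06 and 0.05. The 8 unigenes of the list, tested or not, summed to 84.9 TPM in food intake 1, with the next highest sum 50.8 TPM in food intake 5. The list count without food intake 1 was not computed.

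The assembly limits what a Nucb2 name stands for. TRINITY_DN27278_c1_g4, TRINITY_DN27278_c1_g11 and the NUCB1 unigene TRINITY_DN27278_c1_g5 came from one Trinity component of 11 unigenes, which also held cytochrome b unigenes of human, chicken and zebrafish best match. The other Nucb2 unigene, TRINITY_DN27463_c2_g8, came from a different component, of 8 unigenes. Reads shared between similar unigenes could have been split among them. Whether the 3 Nucb2 unigenes are copies, alleles or pieces of 1 gene cannot be told apart here. The prohormone processing list, which holds cleaving and trimming enzymes together with granule proteins, had 7 of 11 tested unigenes higher (median 0.05) and 0 called. Of all tested unigenes, 46% were above 0. No convertase was among the 4 lowest p of the list. The carboxypeptidase cpe, which trims cleaved peptides, averaged 1.04 ± 0.60 TPM with food intake and 1.48 ± 0.46 TPM without (log2 -0.31, limma adjusted p = 0.883). The granule protein gene CHGA had a unigene of 584 bases (TRINITY_DN2977_c0_g1) that averaged 5.38 ± 1.79 and 4.31 ± 2.26 TPM (log2 0.31, limma adjusted p = 0.903). A longer and more abundant CHGA unigene of 2224 bases (TRINITY_DN31705_c1_g1) averaged 26.3 ± 11.9 and 25.3 ± 17.7 TPM (log2 0.22, limma adjusted p = 0.963).

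The genes most like Nucb2 over the 12 libraries, among 4400 named and tested unigenes with a mean of at least 5 TPM, were PTP4A2, a membrane-linked tyrosine phosphatase (Pearson r 0.97, Spearman rho 0.93), eif4e1a, a cap-binding translation factor (0.94 and 0.96), and MAPKAPK2, a stress-activated kinase (0.93 and 0.90). Without food intake 1 and no food intake 2 the r values were 0.96, 0.96 and 0.92. They were selected as the highest, so no p is given, and the rRNA-like share enters all values of a library. After rescaling r was 0.98, 0.94 and 0.95. None of the 3 passed the feeding test (limma adjusted p = 0.803 each), with eif4e1a at 8.69 ± 5.39 TPM with food intake and 4.33 ± 1.11 TPM without.

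Galanin precursor RNA had the highest mean of the 5 unigenes and varied most between fish, and its feeding groups overlapped throughout. The gal unigene (TRINITY_DN27375_c0_g6, 724 bases, best match galanin peptides of the Atlantic herring, with a galanin message-associated peptide domain) had 5.48, 67.4, 13.1, 7.31, 30.4 and 30.7 TPM in food intake 1 to 6, against 6.91, 28.6, 203, 8.94, 30.7 and 54.6 TPM in no food intake 1 to 6. Low and high fish occurred in both groups, with no food intake 3 far above the rest and food intake 1 the lowest. The medians were 21.8 and 29.6 TPM, and the means 25.7 ± 23.2 and 55.5 ± 74.5 TPM. The log2 change was -0.67 (SE 0.71, 95% interval -2.17 to 0.83; limma adjusted p = 0.903), and 3 of 6 food intake fish lay above the median of the fish without food. Its mean level stood above 97.5% of the tested unigenes and its within-group SD, 1.52 log2 units, above 99.2% of them.

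The size of the gal difference rested on no food intake 3. Without that fish the log2 change was -0.12 (limma adjusted p = 0.990). In the 7 libraries with chicken-matched unigenes it was -0.03, at means of 22.2 TPM with food intake and 24.8 TPM without, and in the other 5, which include no food intake 3, it was -2.01, at 29.3 and 117 TPM (limma adjusted p = 0.996 and 0.763; the difference between the sets was not tested). After rescaling it was -0.52. There food intake 6 had 85.5 TPM and no food intake 3 had 278 TPM.

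Many muscle transcripts and some nerve transcripts stood high in the fish with the most galanin RNA. In no food intake 3, 20 of 35 tested smooth muscle and interstitial-cell unigenes reached their highest level of the 12 libraries and 7 their lowest, and 23 of 28 gastric gland unigenes their lowest. Of 9 tested enteric neuron unigenes, 4 were highest in that fish. Of all tested unigenes, 10.1% were highest and 15.0% lowest there. Among the 4, prph, a filament protein of peripheral neurons, had 1.65 to 6.41 TPM in the food intake fish, against 28.02 TPM in no food intake 3 and 1.01 to 8.55 TPM in the other no food intake fish. UCHL1, a neuronal ubiquitin hydrolase, had 1.47 to 2.90 TPM in the food intake fish, against 10.7 TPM in no food intake 3 and 0.64 to 3.77 TPM in the other no food intake fish. The whole enteric neuron list differed less, with a sum of 137 TPM in no food intake 3. Its sums were 38.9 to 120 TPM in the food intake fish and 51.3 to 112 TPM in the other no food intake fish. Over the 12 libraries gal and the summed smooth muscle list had Pearson r = 0.67 and Spearman rho = 0.57 (permutation p = 0.0156 and 0.0596, adjusted over 7 relations 0.0218 and 0.0834). Without no food intake 3 and food intake 1, r was 0.41. It was 0.07 in the 7 libraries with chicken-matched unigenes and 0.94 in the other 5, so the relation rested on few fish. The summed enteric neuron list had r = 0.22 with gal (rho = 0.27, permutation p = 0.484 and 0.407, adjusted 0.484 and 0.407; r = 0.10 without those 2 fish, -0.15 and 0.75 within the sets). SYT1, a synaptic vesicle protein, made up much of that sum, averaging 51.6 TPM in food intake fish and 28.1 TPM in no food intake fish. The part of tissue makeup in the gal values was not tested.

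**Figure D2:**
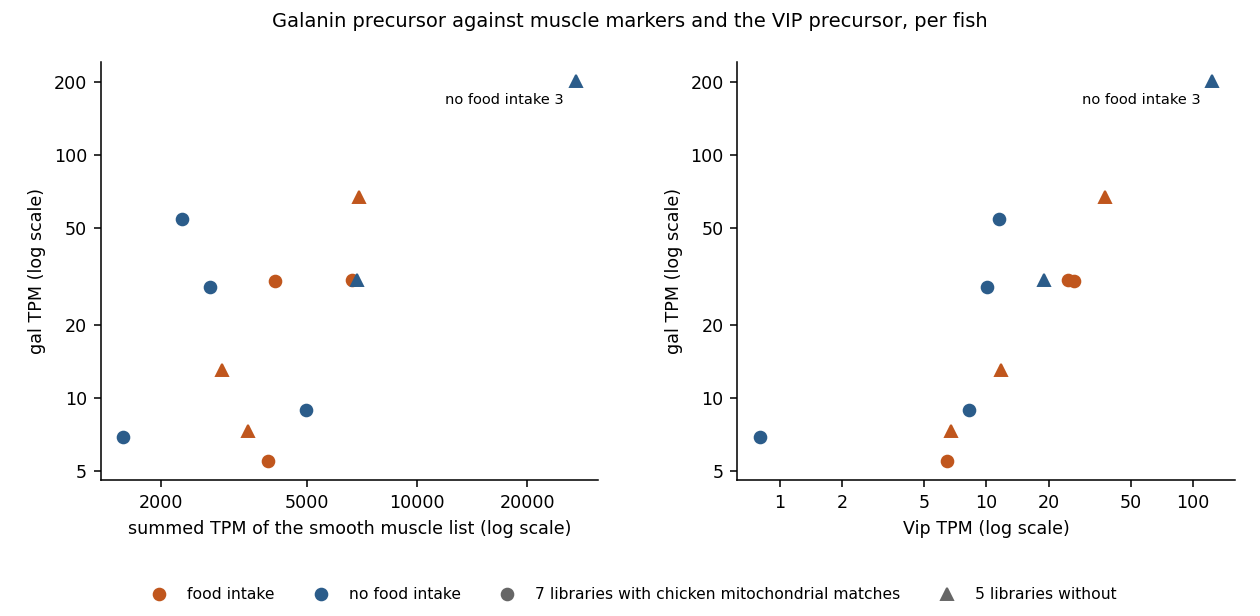
TPM of gal (vertical, log scale) in each fish against the summed TPM of the smooth muscle list (left, log scale) and against TPM of Vip (right, log scale), with food intake and no food intake in different colours and the 2 library sets in different shapes. No food intake 3 lies at the top right of both panels, with 203 TPM of gal and 27097 TPM of the muscle list.

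The gene most like gal was Vip, the precursor of vasoactive intestinal peptide, an enteric neuropeptide that relaxes gut muscle. Its unigene TRINITY_DN24585_c0_g1 had 6.45, 37.3, 11.8, 6.72, 26.6 and 24.7 TPM in food intake 1 to 6, against 0.80, 10.04, 124, 8.23, 19.01 and 11.6 TPM in no food intake 1 to 6. No food intake 3 was again far above the rest and the groups overlapped. Its r with gal was 0.86 (rho 0.89, and r 0.77 without no food intake 3 and food intake 1). HSPB1, a small heat shock protein abundant in muscle (r 0.84), and SMPX, a small muscle protein (r 0.83), followed. None of the 3 passed the feeding test (limma adjusted p = 0.968, 0.968 and 0.851). A galanin receptor, Galr1, was low throughout, at 0 to 0.59 TPM with food intake and 0 to 2.76 TPM without. It was listed at 0 in 2 libraries, its highest value was in no food intake 3, and it did not reach the level for testing. The other galanin receptors, galanin-like peptide and spexin matched no unigene name.

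The tachykinin receptor had the higher mean with food intake, 3.01 ± 1.52 TPM against 1.20 ± 0.60 TPM without (SD, n = 6 each). The TACR1 unigene (TRINITY_DN34152_c2_g2, 1606 bases) had 3.04, 2.81, 2.28, 3.40, 5.57 and 0.95 TPM in food intake 1 to 6, against 1.94, 1.18, 0.23, 1.72, 1.03 and 1.12 TPM in no food intake 1 to 6. Food intake 1 to 5 all exceeded every no food intake fish, and food intake 6 lay among the lowest. The log2 change was 0.82 (SE 0.32, 95% interval 0.16 to 1.49; limma adjusted p = 0.774). It was 0.60 in the 7 libraries with chicken-matched unigenes and 1.27 in the other 5 (limma adjusted p = 0.823 and 0.729). No food intake 3, the library with the highest smooth muscle list sum, had the lowest value of all 12.

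The one food intake fish whose TACR1 value overlapped the other group was food intake 6, the library with the large rRNA-like share. With the rRNA-like unigenes removed and the rest rescaled, its value was 2.64 TPM, the lowest of the food intake group, against a highest no food intake value of 2.07 TPM. The rescaled means were 3.64 ± 1.23 and 1.38 ± 0.63 TPM, and all 6 food intake fish then lay above all 6 no food intake fish. Such a separation held for 0.194% of the unigenes tested after rescaling and for 0.0249% before it, among which no member stood. The rescaled log2 change was 0.98 (limma adjusted p = 0.516), so the unigene was not called there either.

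Gastric gland transcripts lay in the same direction as Nucb2 and TACR1. Of 28 tested gastric gland unigenes, 24 were higher with food intake (median log2 change 0.53) and 0 were called. Of all tested unigenes, 46.0% were above 0. The unigenes of this list carried only 6 gene names, and 23 of the 28 were lowest in no food intake 3. The count of higher unigenes was 25 after rescaling and 20 without food intake 6 and no food intake 3. The lowest p of the list belonged to a unigene of PGA, a pepsinogen (TRINITY_DN35332_c1_g6), with 38806 ± 17830 TPM with food intake and 18127 ± 17955 TPM without (log2 1.41, limma adjusted p = 0.774). The part of tissue makeup in the Nucb2 and TACR1 values was not tested.

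Whether the unigene is the substance P receptor is not settled by its annotation. The name TACR1 came from a dog substance-P receptor, whereas the best match was the substance-K receptor of the Atlantic herring and the orthology entry was tachykinin receptor 2, the receptor for neurokinin A. An unnamed unigene with the same herring match and orthology, TRINITY_DN33992_c2_g1 (3823 bases), was found after the values were seen. It had 6.16, 5.52, 5.17, 10.4, 7.60 and 1.93 TPM with food intake, against 4.89, 3.07, 0.47, 6.72, 5.22 and 5.79 TPM without. Its lowest value was also in no food intake 3, but the groups overlapped widely, with 2 of 6 food intake fish above all no food intake fish. The means were 6.13 ± 2.80 and 4.36 ± 2.26 TPM (log2 0.47, SE 0.41; limma adjusted p = 0.876). The pair had Pearson r = 0.80 and Spearman rho = 0.76 (permutation p = 0.00138 and 0.0063, adjusted 0.00322 and 0.0151), with r = 0.69 without food intake 5 and no food intake 3, and 0.69 and 0.90 within the 2 sets.

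**Figure D3:**
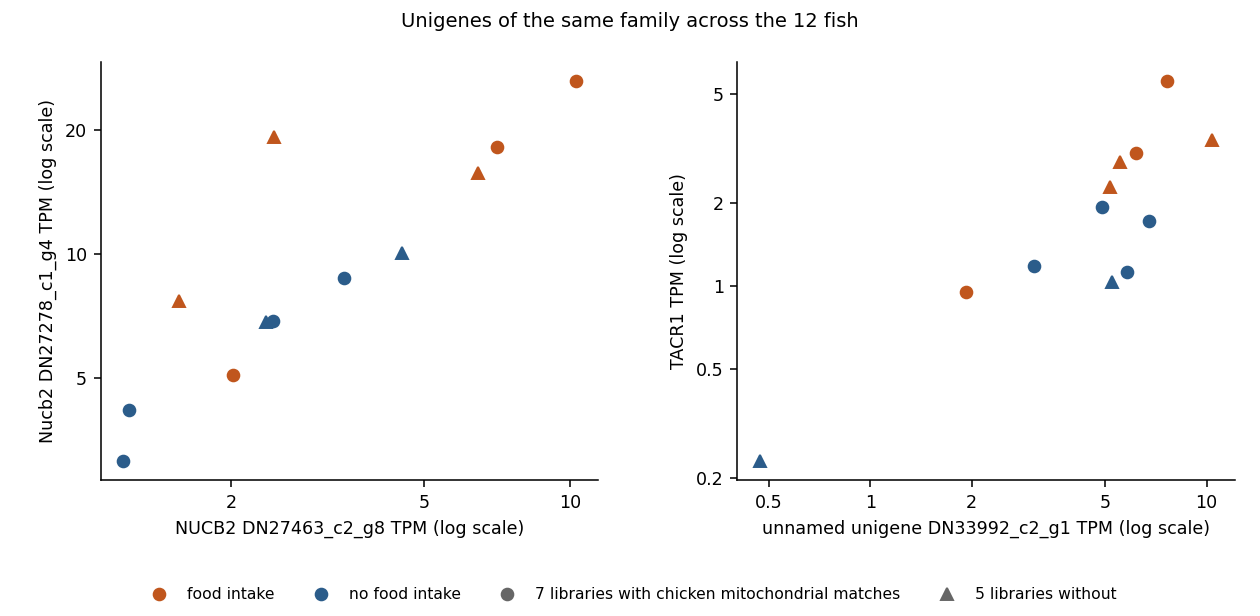
TPM of pairs of unigenes of one family in each fish, on log scales: Nucb2 TRINITY_DN27278_c1_g4 against NUCB2 TRINITY_DN27463_c2_g8 (left) and TACR1 against the unnamed unigene with the same herring match (right). The Nucb2 pair follows one line apart from food intake 3 and 4, and no food intake 3 is lowest in both receptor unigenes.

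Other parts of the tachykinin system were at low levels. Tacr3, the receptor for neurokinin B, had 0.05 to 0.46 TPM with food intake and 0.19 to 7.38 TPM without, the highest in no food intake 3 and all others in that group at 0.77 TPM or less. It shared a Trinity component of 4 unigenes with TACR1. Tachykinin precursors matched no unigene name, but a pair of unnamed unigenes, found by annotation after the values were seen, had tachykinin entries. The one matching tachykinin-3 had 0.24 to 2.09 TPM with food intake and 0.04 to 3.96 TPM without, and the one with a tachykinin 4 entry 0 to 4.83 TPM and 0.05 to 4.51 TPM. No food intake 3 was the highest no food intake fish in both. These were not tested because they were under 1 TPM in most fish. ECE1, an enzyme that can degrade tachykinins, had 2.90 ± 1.33 and 3.71 ± 0.94 TPM (log2 -0.33, limma adjusted p = 0.880). ACE, another peptidase that can cleave substance P, was carried by 6 unigenes at 0 to 5.09 TPM in food intake fish and 0 to 5.53 TPM in no food intake fish, of which 0 reached the level for testing. Both highest values came from a unigene of 240 bases with a human best match (TRINITY_DN2668_c0_g1), and another ACE unigene had a rat best match. Whether these are fish transcripts was not tested.

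Signal transduction genes downstream of Gq-coupled receptors had no common direction, with 14 of 29 tested unigenes higher, a median log2 change of -0.05 and 0 called. Of all tested unigenes, 46% were higher, with a median of -0.04. Rgs2, a negative regulator of Gq, averaged 30.8 ± 26.5 TPM in food intake fish and 47.7 ± 28.4 TPM in no food intake fish (log2 -0.70), and RGS5 had 10.7 ± 2.72 and 7.60 ± 3.93 TPM (log2 0.53). Of smooth muscle and interstitial-cell unigenes, 12 of 35 were higher (median -0.05, 0 called). That count was 25 after rescaling and 26 without food intake 6 and no food intake 3. The list median turned to 0.06 and 0.11, as the median of all tested unigenes did, to 0.06 and 0.05. TACR1 and the smooth muscle sum had r = -0.46 (rho = -0.27, permutation p = 0.131 and 0.39, adjusted 0.153 and 0.407), and r = -0.08 without food intake 5 and no food intake 3, with 0.07 and -0.86 within the sets.

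The genes most like TACR1 were AQP4, a water channel (Pearson r 0.94, Spearman rho 0.87), Itga6, a laminin-binding integrin of epithelia (0.92 and 0.93), and Tmem63b, a mechanosensitive cation channel (0.91 and 0.88). Without food intake 5 and no food intake 3, r was 0.87, 0.85 and 0.88. AQP4 averaged 11.7 ± 8.99 TPM in food intake fish and 2.52 ± 1.94 TPM in no food intake fish (log2 1.71, SE 0.50; limma adjusted p = 0.768). Itga6 averaged 22.3 ± 10.9 TPM in food intake fish and 10.7 ± 3.98 TPM in no food intake fish (log2 0.89, SE 0.41; limma adjusted p = 0.789), and Tmem63b had 7.10 ± 2.72 and 4.01 ± 1.42 TPM (log2 0.66). After rescaling, Tmem63b was the seventh most similar and the other two kept their places.

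Over the 5 unigenes, limma called 0 at adjusted p under 0.05, as it did for 0% of all 40142 tested. At unadjusted p under 0.05, 2 of 5 were higher with food intake (Nucb2 TRINITY_DN27278_c1_g4 and TACR1) and 0 lower, where 2.48% of all tested unigenes were higher and 3.79% lower at that level (997 and 1521 unigenes, 6.27% in all). The members, TACR1 among them, were chosen with earlier results of these data known, so 2 of 5 cannot be read as an excess over those shares. Among gut peptides and appetite hormones, 4 of 10 tested unigenes were higher (median -0.18, 0 called), with the somatostatin gene sst2 at 134 ± 73.6 TPM with food intake and 367 ± 204 TPM without (log2 -1.45; limma adjusted p = 0.768) and Sstr1, a somatostatin receptor, at 5.75 ± 5.64 and 2.69 ± 0.78 TPM (log2 0.54). Nucb2 and somatostatin were picked out by the study from these same libraries, so their direction here is not independent evidence. Endocrine cell markers had 9 of 12 tested unigenes higher (median 0.15), where 46.0% of all tested unigenes were above 0. CHGA, scg3, SCG5 and PCSK1 are also in the prohormone processing list, so the counts of both lists share unigenes. Enteric neuron markers had 2 of 9 higher (median -0.20, and 5 of 9 without food intake 6 and no food intake 3). In the endocrine and neuron lists 0 were called.

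**Figure D4:**
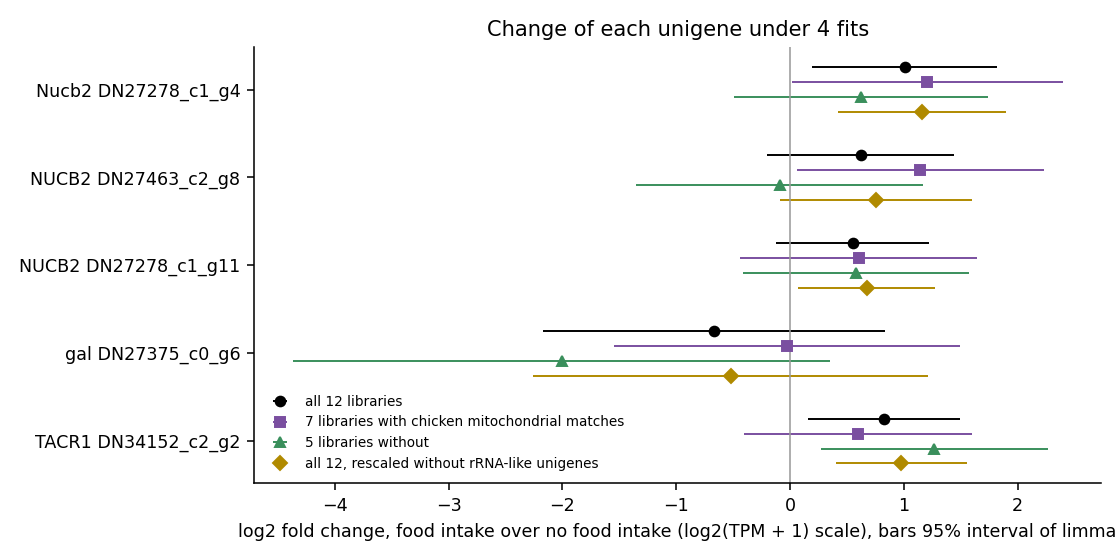
Log2 fold change of each of the 5 unigenes, with no food intake as the base and log2(TPM + 1) as the scale, with the 95% interval of limma, for all 12 libraries, for the 7 libraries with chicken-matched unigenes, for the other 5, and for all 12 rescaled without rRNA-like unigenes. Nucb2 TRINITY_DN27278_c1_g4 and TACR1 have intervals above 0 over all 12 libraries, and NUCB2 TRINITY_DN27278_c1_g11 does so only after rescaling. The TACR1 interval crosses 0 in the 7 libraries, and that of Nucb2 TRINITY_DN27278_c1_g4 in the other 5. For gal the intervals cross 0 in each fit. NUCB2 TRINITY_DN27463_c2_g8 has an interval above 0 in the 7 libraries and changes sign in the 5 (log2 -0.09). The intervals are not adjusted for the number of unigenes tested.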

How the data were processed

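RNA was extracted from 12 stomachs with TRIzol and read from both ends on a HiSeq machine, per the labels' protocols. The tools cutadapt and FastQC are listed, without versions, per the submitters' processing notes. Trinity identifiers in the deposited table show assembly without a genome. The quantifier is not given in the sources used here. The deposited values were read as TPM from their near-equal column totals, as no unit stands in the header. The unigene names and best matches are those of the authors' annotation, and 0 value columns were left unmatched to a sample.

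Changes were fitted with limma 3.58.1 (trend in the prior variance, group as the term, Benjamini-Hochberg adjustment, threshold 0.05) in R 4.3.3 on log2(TPM + 1). Unigenes entered if 6 or more libraries reached 1 TPM. Sums over unigenes of 1 name were fitted over all names. Correlations used 100000 permutations of libraries across both groups, drawn with a fixed seed (Python 3.11.15, two-sided), over 7 relations. The script was tested on simulated data. The rRNA-like unigenes had a mean of at least 1000 TPM and a correlation of at least 0.95 with the unigene named ART2. The members and gene lists were chosen with earlier results of these data known. Named genes were every unigene of the 3 names, the 3 most similar genes for each name, up to 4 of the smallest p in each list, and, whatever their p, nucleobindins, tachykinin and galanin system genes and peptide-degrading enzymes of the lists. Same-numbered fish of the groups were not treated as paired (their deviations correlated above 0.1 in 1 of 6 pairs), so the main fit had no block. Such correlations cannot show whether the fish were sampled in pairs. Alternatives were other normalizations, filters and pseudocounts, library sets and left-out libraries.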

Additional observations from a re-analysis of the deposited data

Results flagged for a closer look

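The gal level of no food intake 3, 203 TPM, stood far above the other 5 no food intake libraries, whose highest was 54.6 TPM. The gap took 0.76 of the whole range of its group, above the 95% limit of Dixon's test for 6 values. Chance alone sets off this test in about 1 group in 20 if the values are normally distributed. It was run on TPM and not on the log values used elsewhere, and values with a long upper tail can set it off more often. In all, 10 groups of values were examined, of which this was the single one past the limit. In the same fish Vip had 124 TPM and the smooth muscle list 27097 TPM, while the gastric gland list had 59324 TPM, the lowest of the 12 libraries. The part of tissue makeup in the gal value was not tested.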

How the results depend on the processing

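The 3 summed names, the most abundant Nucb2 unigene, NUCB2 TRINITY_DN27278_c1_g11, gal and TACR1 kept their sign and stayed uncalled under every alternative that gave a value (22 or 23 each). NUCB2 TRINITY_DN27463_c2_g8 reversed, to -0.090, in the 5 libraries without chicken-matched unigenes, and the cause was not tested. Leaving out each library in turn gave log2 changes of 0.73 to 1.19 for summed Nucb2, -1.06 to -0.12 for gal and 0.66 to 1.01 for TACR1. The smallest limma adjusted p of summed Nucb2 and of summed TACR1 were 0.112 and 0.105, without food intake 6. For the TACR1 unigene, adjusted over all unigenes, the smallest was 0.219, also without food intake 6. With the replicate block, the summed Nucb2 log2 change was 0.94 (limma adjusted p = 0.775) and the block called 0 unigenes. Same-numbered fish correlated best with each other in 1 of 12 cases. With a minimum of 5 TPM, TACR1 and the 2 less abundant NUCB2 unigenes left the test. limma's count of unigenes called over the whole table was 1 higher and 1 lower after quantile normalization, 1 higher after rescaling, and 0 to 1 higher and 0 lower on leaving out single libraries, the 1 without no food intake 4 (997 higher and 1521 lower at unadjusted p under 0.05 in all 12). The count of higher list members changed to 25 and 26 of 35 in smooth muscle after rescaling and without food intake 6 and no food intake 3, and to 5 of 9 in enteric neurons without those 2, an omission chosen after seeing the data. Across the table, the median log2 value was -0.04 as deposited, 0.06 after rescaling and 0.05 without food intake 6 and no food intake 3. TPM gives no depth, so values below 1 TPM rest on an unknown number of reads.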
